A study of Mus musculus with 14 samples.

Results

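The genes described here are the replication-dependent histone genes, which supply the histone proteins H1, H2A, H2B, H3 and H4 in S phase. They were taken by name, as every mouse symbol starting with Hist1h, Hist2h, Hist3h or Hist4h except the pseudogene symbols, which gave 53 of the 36536 genes in the count tables. Of these, 6 encode H1, 17 H2A, 13 H2B, 6 H3 and 11 H4. The rule names 70 annotated symbols in all: 1 pseudogene symbol was left out, and 16 others are not analysed here. Hist1h2aj, annotated as a pseudogene under an ordinary symbol, was kept by the rule. The members lie on chromosome 13 (Hist1), 3 (Hist2) and 11 (Hist3).

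RNA was measured in 14 mouse libraries that fall into 6 groups. The crypt groups are intestinal crypts, the pits of the epithelium that hold stem, dividing and maturing cells, from mice of 6 to 8 weeks. Knockout (KO) crypts came from Atoh1lox/lox;VilCreERT2 mice and wild-type (WT) crypts from Atoh1lox/WT;VilCreERT2 littermates, so the WT mice carry a floxed allele and the Cre too, and the Villin-driven Cre acts in the intestinal epithelium. KO and WT have 2 libraries each in colon and in ileum. The GFP groups are live (7AAD-negative), GFP-positive cells sorted from colon or ileum crypts of Atoh1GFP/GFP mice, which carry an ATOH1-GFP fusion protein described as functional, with 3 libraries per tissue. ATOH1 is the transcription factor that directs progenitors into the secretory lineage, such as goblet and Paneth cells. The labels do not say that the libraries of a group come from separate animals, and the spread behind each p-value is that between libraries, which may be technical only.

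Replication-dependent histone genes have no introns and are transcribed in S phase under NPAT and the histone locus body. Their mRNAs do not end in a poly(A) tail: the 3′ end is cut just after a short stem-loop, which the stem-loop binding protein SLBP holds. When DNA synthesis stops, the mRNAs are uridylated and degraded. Some members can also give longer, polyadenylated transcripts that run past the stem-loop, in differentiated cells among others. A library made from poly(A)-selected RNA therefore sees few of the stem-loop transcripts, while one made without that selection sees them. The labels give the same extraction text for crypts and sorted cells (total RNA, standard Illumina library protocol) and name no selection step.

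The stem-loop was searched for in the annotated transcripts (GENCODE M21) because it is the feature that sets these mRNAs apart. The pattern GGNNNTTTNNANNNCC with arms that pair was found on the sense strand of 35 of 53 members, against 62 of 21834 other protein-coding genes (0.284%). The form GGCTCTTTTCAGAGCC was in 20 members, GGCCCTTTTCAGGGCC in 6 and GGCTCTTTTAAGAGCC in 5. The following stretches show the 16 bases of the stem-loop in capitals, with 5 bases on each side, for the genes the results turn on.

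Hist1h1c: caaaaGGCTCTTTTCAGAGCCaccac
Hist1h1d: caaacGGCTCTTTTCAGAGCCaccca
Hist1h1e: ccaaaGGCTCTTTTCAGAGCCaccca
Hist2h2ac: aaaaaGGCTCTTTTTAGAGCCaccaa
Hist1h2bb: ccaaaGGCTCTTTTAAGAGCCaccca
Hist1h3e: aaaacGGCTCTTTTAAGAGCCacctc
Hist1h4c: caaaaGGCCCTTTTCAGGGCCaccca
Hist1h4d: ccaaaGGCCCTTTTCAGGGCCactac
Hist1h4i: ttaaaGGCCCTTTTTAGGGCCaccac

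In 18 members the annotated transcript ended within 60 bases after the stem-loop. In 17 it ran on, by 840 bases in Hist1h1c (with the polyadenylation hexamer AATAAA in that stretch), by 770 in Hist1h4d, by 330 in Hist1h4i and by 1643 in Hist3h2a. In the other 18, Hist1h2bc, Hist2h2be, Hist1h1a and Hist1h1b among them, the pattern was not in the annotated transcripts. Some of these are short, at 393 bases in Hist1h2ak and 312 in Hist1h4k. A stem-loop past the annotated end would not be found, so no match does not mean that the gene lacks one.

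Histone genes are near-copies of each other. Of the 53 members, 26 share 50% or more of their 50-base windows with another annotated gene, 3 share all of them and 4 share none (Hist1h1a, Hist1h1b and Hist2h2be among these). Reads that fit several places equally well are not counted per gene in such tables, and reads on shared stretches can be split among copies, so the level of a highly shared member is uncertain. Among the genes with most counts, the shared part was 8.54% in Hist1h1c, 10.2% in Hist1h4d, 30.6% in Hist1h2bc and 32.0% in Hist1h1e, which overlaps Hist1h2be. The H2A genes Hist1h2ak (57.0%) and Hist2h2ac (55.0%) and the H3 gene Hist1h3e (73.4%) are less certain. In total, 7 members had no count in any library, and 12 had 10 counts or fewer over all 14.

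Levels below are counts per 1000000 gene counts (CPM), scaled by TMM factors, and are given as mean ± SD over the libraries of a group. Gene totals were 8848660 to 10870416 counts in crypt libraries and 7478418 to 12991891 in sorted ones. Atoh1 itself was at 44.7 to 62.6 CPM in colon WT, 5.2 to 5.9 in colon KO and 231 to 295 in colon GFP, and at 39.5 to 41.0, 0.526 to 1.02 and 195 to 323 in the same ileum groups. The 8 secretory markers summed to 48353 to 131710 CPM in sorted cells, 5663 to 12718 in WT and 532 to 1089 in KO. The sum follows the most abundant markers. By the edgeR test described below, 5 were higher and 1 lower in colon GFP than WT, and 6 and 1 in ileum. Over all genes tested, 22.3% and 24.6% were higher. Against KO, 7 were higher and 1 lower in each tissue. The 6 epithelial markers were present in all 14 libraries, at a sum of 3344 to 5759 CPM in sorted cells and 7298 to 9466 in crypts. The sorted libraries differed from the crypt libraries in a further way: mt-Rnr1 and mt-Rnr2, the ribosomal RNAs of mitochondria, took 30.02 to 44.88% of their gene counts, against 0.14 to 0.22% in crypts. Uniquely placed reads outside annotated genes were also more frequent, at 24.87 to 52.29% in sorted libraries, highest in ileum GFP 1, against 9.3 to 13.25% in crypts. The part of either in the histone levels was not tested.

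Histone RNA was several times more abundant in the sorted GFP libraries than in crypts. Summed over the 53 members, colon GFP 1, 2 and 3 had 348, 415 and 1026 CPM, colon WT had 146 and 116, and colon KO had 168 and 174. Ileum GFP 1, 2 and 3 had 506, 393 and 396 CPM, ileum WT had 99.9 and 76.2, and ileum KO had 106 and 95.9. The lowest sorted library was above the highest crypt library, and colon GFP 3 stood at more than 2 times any other colon library. The group means were 596 ± 374 (n = 3) in colon GFP, 131 ± 21.5 (n = 2) in colon WT, 171 ± 4.07 (n = 2) in colon KO, 432 ± 64.5 (n = 3) in ileum GFP, 88.0 ± 16.7 (n = 2) in ileum WT and 101 ± 7.5 (n = 2) in ileum KO. Without colon GFP 3, the colon GFP mean was 382 CPM. In bulk samples, fewer cells of a type and less RNA per cell cannot be told apart.

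The excess was unequal among the histone types. Over the members counted, core histones H3 and H4, and H2A, were nearly absent from crypts. H4 stood at 3.49 CPM in colon WT and 3.9 in ileum WT, against 212 ± 151 in colon GFP and 147 ± 26.5 in ileum GFP. The ratio of the GFP to the WT mean was 60.9 in colon and 37.8 in ileum for H4, 81.1 and 18.7 for H3, and 27.6 and 13.3 for H2A. For the linker histone H1 it was 2.53 and 3.54, and for H2B 2.79 and 2.62. The H3 ratios are imprecise. Among H3 genes only Hist1h3a and Hist1h3e had counts in WT, 2 each in colon and 4 each in ileum. The H3 sum in colon GFP was 25.4 CPM in GFP 3, against 5.10 and 4.98 in GFP 1 and 2. These sums carry no test, because the members were a chosen set.

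**Figure D1:**
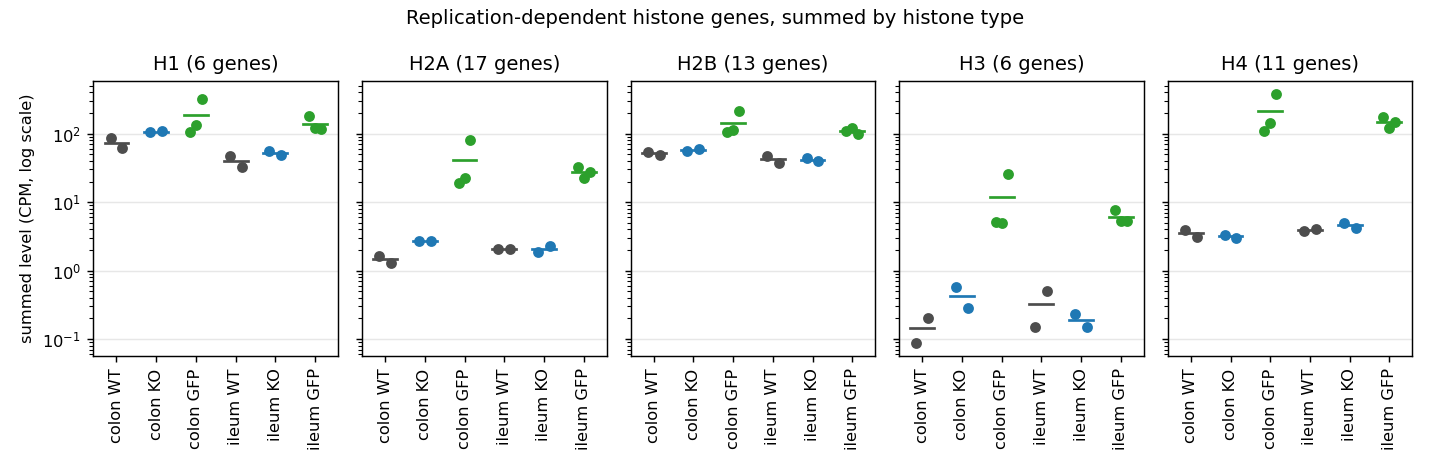
Summed level of the histone genes of each type in CPM (log scale) by group; each point is a library and each line a group mean (WT grey, KO blue, GFP green). H4 rises from 3.49 CPM in colon WT to 212 in colon GFP, while the H1 and H2B points of crypts and sorted cells lie within a few fold of each other.

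The low ratios of H1 and H2B came from 3 genes with high levels in crypts, chosen here after their values were seen: the linker histone Hist1h1c (H1.2) and the H2B genes Hist1h2bc and Hist2h2be. Together they held 93.0 to 93.7% of all histone counts in the 4 colon crypt libraries and 88.1 to 90.7% in the 4 ileum crypt libraries. In the sorted libraries they held 18.2 to 35.3%. For colon WT 1 the share was 93.7% (exact Clopper-Pearson 95% interval 92.4 to 94.8) and for colon GFP 3 19.0% (18.1 to 19.9). These intervals cover counting error only. The H4 gene Hist1h4d alone held 26.8 to 34.3% of histone counts in sorted cells and 0.0763 to 0.314% in crypts. The 50 members other than the 3 summed to 225 to 831 CPM in sorted libraries and 7.72 to 11.8 CPM in crypts.

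**Figure D2:**
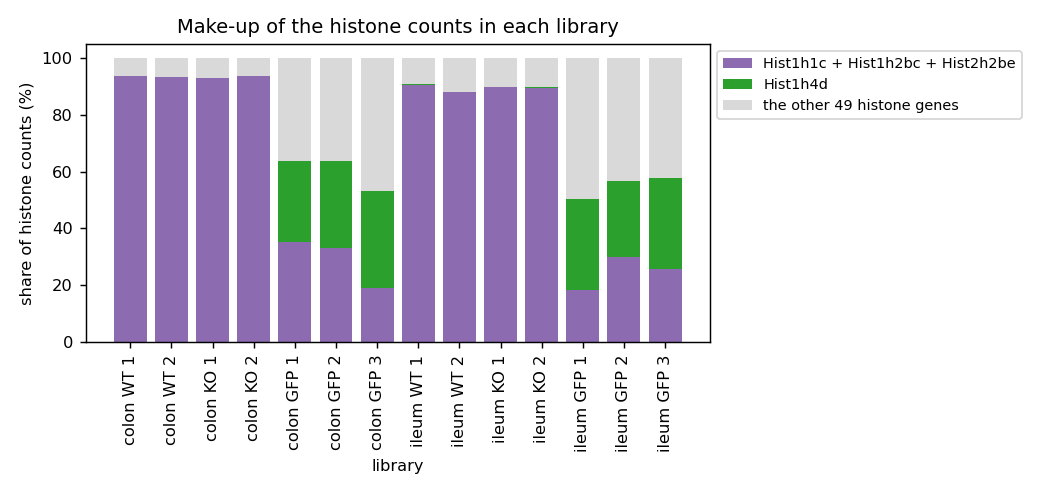
Make-up of the histone counts in each library as a percentage (stacked bars to 100): Hist1h1c, Hist1h2bc and Hist2h2be together (purple), Hist1h4d (green) and the rest (grey). Purple fills 88.1 to 93.7% of each crypt bar and 18.2 to 35.3% of each sorted bar.

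The contrast between Hist1h4d and these genes was also seen per length. Per kilobase of exon, Hist1h4d stood at 170 ± 121 CPM in colon GFP and 116 ± 25.8 in ileum GFP, above Hist1h2bc (75.5 ± 22.7 and 51.8 ± 12.7) and Hist1h1c (33 ± 8.8 and 20.2 ± 2.03). Among the same genes and Hist2h2be, the order in colon WT was Hist1h1c (46.3 ± 10.4 CPM per kilobase), Hist1h2bc (37.0 ± 3.31), Hist2h2be (2.74 ± 0.146) and Hist1h4d (0.136 ± 0.0226). The shorter Hist1h4i, at 3.81 ± 1.01, stood above Hist2h2be there by about its own SD. Hist1h1c and Hist1h2bc were within their spread of each other in colon WT. In colon GFP the spread of Hist1h4d between libraries, with colon GFP 3 at the top, reached the mean of Hist1h2bc. Within each colon GFP library, however, Hist1h4d was the higher, at 99.3, 128 and 351 CPM against 69.0, 75.5 and 117. Their exon lengths are near each other, at 1138 and 1156 bases.

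The transcript ends of the genes seen in crypts were also described. No member whose annotated transcript ends within 60 bases of the stem-loop exceeded 20 counts in a crypt library; the highest was Hist1h2bj with 10. In sorted libraries 7 of those 18 exceeded 20, with Hist1h2bb up to 121. Of the 17 that run on past the stem-loop, Hist1h1c, Hist1h1d and Hist1h4i exceeded 20 in a crypt library and 11 did in a sorted library. Of the 18 with no match in the annotated transcripts, Hist1h2bc and Hist2h2be did in a crypt library and 7 in a sorted library. That class mixes genes whose annotation may stop before a stem-loop with any that have none. The limit of 20 is on raw counts, which also follow transcript length. Hist1h1d, at 7425 bases, was at 0.221 CPM per kilobase in colon KO, where Hist1h2bj, at 463 bases, was at 0.31. The median of the highest crypt count per member was 2 for ends near the stem-loop, 6 for transcripts that run on and 2.5 for no match. The part of length in these counts was not tested.

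Sorted GFP cells were first compared with WT crypts, gene by gene. Of the 53 members, 20 were higher in colon GFP and 0 lower by edgeR's quasi-likelihood test (Benjamini-Hochberg adjusted p under 0.05 over all 15274 genes tested), 4 were not called and 29 had too few counts to be tested. Over all genes tested, 22.3% were higher and 45.9% changed in either direction. Without colon GFP 3, 20 were higher and 2 lower (Hist1h1c and Hist1h4i). In ileum 19 members were higher and 0 lower, 5 were not called and 29 were not tested, where 24.6% of all genes tested were higher and 52.8% changed. At an unadjusted p under 0.05, edgeR gave 2 lower members in colon and 0 in ileum, and DESeq2 gave 1 and 0 and called 0 lower. Most tested members passed the filter on low counts through the GFP libraries alone, so the count among tested members is not support. Over all 53, every GFP library was above every WT library for 31 members in colon and 29 in ileum, which held for 18.1% and 15.7% of all 36536 genes. It was below for Hist1h2ae in colon (2 counts in GFP, 6 in WT) and for Hist1h4i in ileum, and 8 members had no count in either group in each tissue. Genotype and sorting both differ between these groups, and their parts and any difference in preparation that came with sorting cannot be told apart.

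**Figure D3:**
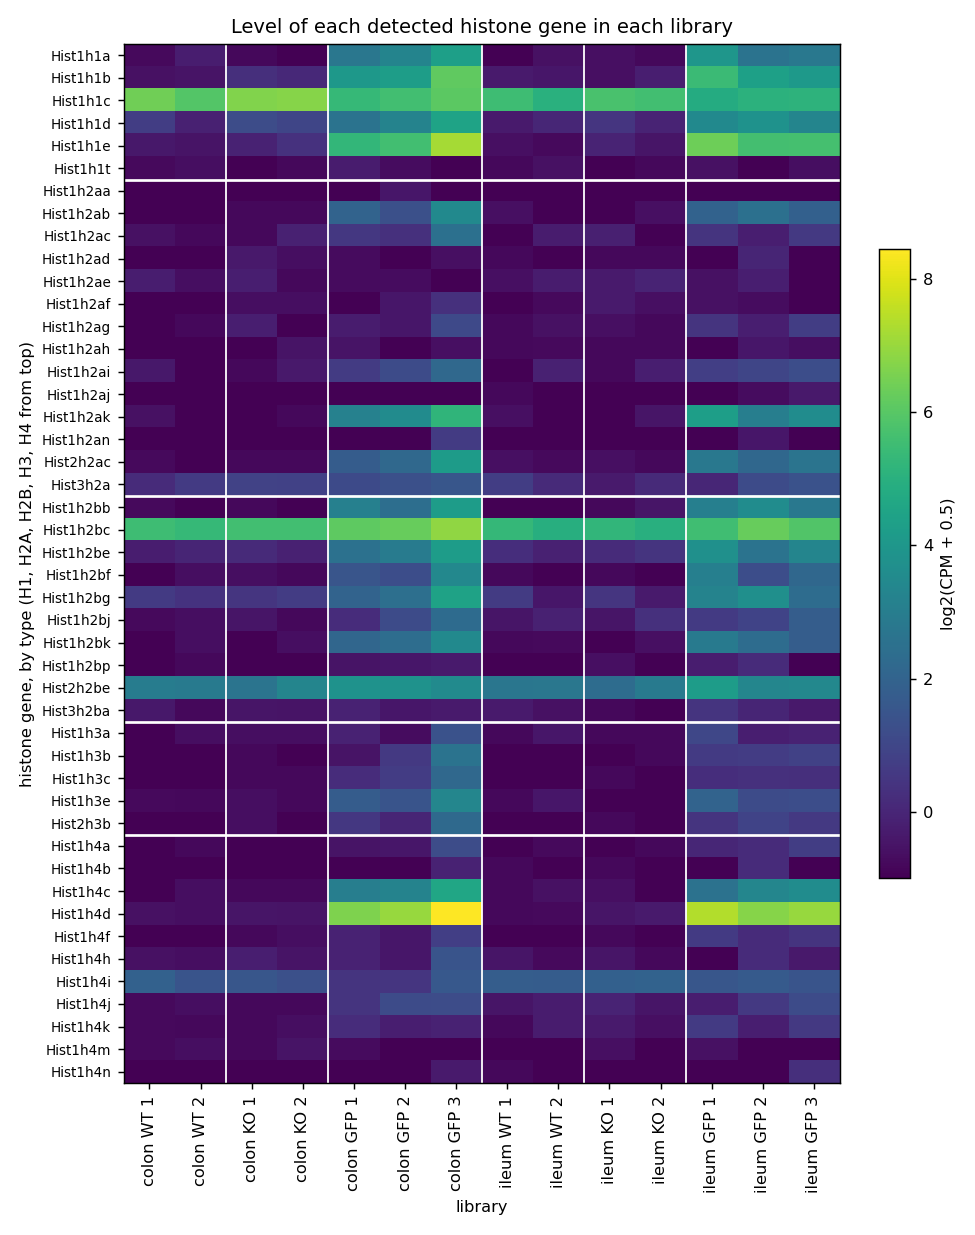
Level of each histone gene with a count in any library, as log2(CPM + 0.5), by library (columns, grouped) and histone type (rows, H1 to H4 from the top). Most rows are dark in the crypt columns. Hist1h4d, Hist1h1e and Hist1h1b are among those brighter in the GFP columns, while many low rows, such as Hist1h2ad and Hist1h4m, stay dark in all 14. Hist1h1c, Hist1h2bc and Hist2h2be are visible in all 14. Hist1h4i is faint, at 0.850 and 0.872 CPM in colon GFP 1 and 2.

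Among the linker histones, 4 of 6 genes rose in GFP cells of both tissues and Hist1h1c did not. Linker histones bind the entry and exit of DNA at the nucleosome. Hist1h1e (H1.4) was at 38.2, 47.2 and 145 CPM in colon GFP and 83.1, 48.8 and 51.0 in ileum GFP. In crypts it was at 0.260 and 0.205 in colon WT, 0.433 and 0.773 in colon KO, 0.152 and 0.0831 in ileum WT, and 0.469 and 0.226 in ileum KO. The groups did not overlap, and Hist1h1e was 8.31 (SE 0.846, adjusted p 2.15e-05) higher on the log2 scale in colon GFP than WT. In ileum WT it had 3 counts in all, against 1244 in GFP, a ratio of 496 (counting interval 169 to 2407, adjusted p 1.75e-05 by edgeR).

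Hist1h1b (H1.5) was at 15.9, 18.6 and 69.8 CPM in colon GFP, 43.4, 20.3 and 16.8 in ileum GFP and 0.156 to 0.722 in the 8 crypt libraries. It rose by 7.42 (SE 0.983) in colon and 6.53 (SE 0.938) in ileum on the log2 scale. Hist1h1a (H1.1) was at 6.27, 9.09 and 19.9 CPM in colon GFP, 15.0, 5.51 and 6.42 in ileum GFP and at most 0.342 in crypts. These 2 genes share no window with another gene, so their counts are among the least affected by copies. Hist1h1d (H1.3) was at 5.63, 8.96 and 21.7 CPM in colon GFP, 10.7, 13.5 and 9.28 in ileum GFP and 0.305 to 1.81 in crypts, a rise of 3.99 (SE 0.613) and 4.77 (SE 0.667). The testis H1 gene Hist1h1t was not tested.

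Hist1h1c followed another course. It was at 40.0, 47.7 and 66.6 CPM in colon GFP, 83.8 and 60.8 in colon WT, and 102 and 105 in colon KO. In ileum it was at 27.9, 33.1 and 33.7 CPM in GFP, 45.6 and 31.2 in WT, and 53.7 and 48.3 in KO. GFP and WT overlapped in both tissues, and the difference was -0.49 on the log2 scale in colon (adjusted p 0.08 by edgeR) and -0.28 in ileum (adjusted p 0.306). Hist1h1c was called lower in colon GFP without colon GFP 3 (-0.72, adjusted p 0.0135 by edgeR) and with no filter on low counts (-0.57, 0.0268).

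The H2A genes that could be tested rose, except Hist3h2a. With the crypt libraries alone 1 H2A gene passed the filter on low counts, so the count among those tested is not support. H2A pairs with H2B in the nucleosome. Hist1h2ak was at 8.40, 11.2 and 36.2 CPM in colon GFP, 19.2, 7.71 and 11.7 in ileum GFP and at most 0.226 in crypts. With 2 counts in colon WT and 2 in ileum WT, the ratios were 223 (counting interval 61.3 to 1847) and 154 (42.3 to 1280). Hist2h2ac, at 2.87, 4.11 and 17.9 CPM in colon GFP and 6.47, 3.92 and 5.71 in ileum GFP, had 1 and 3 counts in WT, and ratios of 195 (34.6 to 7757) and 43.8 (14.6 to 216). Hist1h2ab was at 3.51, 1.99 and 10.8 CPM in colon GFP and had no count in colon WT, so that, taking 3 counts over the group as the floor, it was at least 43.8-fold higher. In ileum GFP it was at 3.41, 5.14 and 3.28 CPM, a ratio of 50.8 (13.6 to 426) to the 2 counts in WT. All of these were called by edgeR in both tissues (adjusted p 0.000132 to 0.000966).

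Hist1h2ai was at 1.06, 1.74 and 4.03 CPM in colon GFP and 1.19, 1.47 and 1.86 in ileum GFP, against at most 0.415 in crypts. It was called in both tissues (adjusted p 0.0113 and 0.044 by edgeR), but not in colon without colon WT 2 (adjusted p 0.112), and not in ileum without ileum GFP 2, ileum GFP 3 or ileum WT 1 (0.0699 to 0.224) or with only the groups compared in the fit (0.0584). Hist3h2a, whose annotated transcript is long, was at 1.70, 1.99 and 2.39 CPM in colon GFP and 0.606 and 1.03 in colon WT, a difference of 1.28 (SE 0.6, adjusted p 0.095 by edgeR). In ileum it was at 0.511, 1.71 and 2.14 CPM in GFP and 1.14 and 0.582 in WT, so the groups overlapped. The other 12 of the 17 H2A genes had too few counts for a test.

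All 8 H2B genes tested were called higher in both tissues, but by very unequal amounts. The other 5 of the 13 were not tested, and 3 of those had no count in either group. With the crypt libraries alone 3 H2B genes passed the filter on low counts, so the count of 8 is not support. Over all genes tested, 22.3% were higher in colon and 24.6% in ileum. Hist1h2bb was at 8.08, 4.86 and 18.1 CPM in colon GFP and 8.00, 11.5 and 6.42 in ileum GFP, against at most 0.226 in crypts. Colon WT held 1 count, a ratio of 256 (counting interval 45.5 to 10157). Ileum WT held none, so Hist1h2bb was at least 74.1-fold higher in ileum GFP. Hist1h2bk was at 3.83, 4.73 and 10.8 CPM in colon GFP and 6.81, 4.53 and 3.00 in ileum GFP, and Hist1h2bf at 2.34, 1.87 and 10.3 in colon GFP and 8.00, 1.84 and 4 in ileum GFP. Neither passed 0.15 CPM in a crypt library.

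Hist1h2be was at 5.31, 7.22 and 18.4 CPM in colon GFP and 12.8, 5.51 and 9.42 in ileum GFP, and Hist1h2bg at 3.51, 4.98 and 21.1 and at 8.85, 12.5 and 4.57. In crypts Hist1h2be stood at 0.346 to 0.827 CPM and Hist1h2bg at 0.249 to 1.12. Hist1h2bj was lower, at 0.638, 1.74 and 4.48 CPM in colon GFP and 1.02, 1.35 and 3.00 in ileum GFP, against 0.0702 to 0.752 in crypts. The call of Hist1h2bj was lost in colon without colon WT 1 (adjusted p 0.0532 by edgeR) and in ileum without ileum GFP 3, ileum WT 1 or ileum WT 2 (0.0761 to 0.17). That of Hist1h2bg was lost in colon without colon WT 2 (0.0623).

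The H2B genes that crypts also expressed moved about 2-fold. Hist1h2bc was at 69.0, 75.5 and 117 CPM in colon GFP, 45.5 and 40.1 in colon WT and 48.3 and 48.3 in colon KO. In ileum it was at 46.1, 75.3 and 58.2 CPM in GFP, 38.8 and 29.8 in WT and 37.3 and 30.4 in KO. Each GFP library was above each WT library, by 1.02 on the log2 scale in colon (SE 0.246, adjusted p 0.00408 by edgeR) and 0.80 in ileum (SE 0.246, adjusted p 0.0139). Leaving out colon WT 2 ended the colon call (adjusted p 0.051 by edgeR), and leaving out ileum GFP 2 or ileum WT 2 the ileum call (0.0593 and 0.126).

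Hist2h2be was at 13.8, 13.7 and 10.9 CPM in colon GFP, 7.44 and 6.90 in colon WT and 5.71 and 9.48 in colon KO. In ileum it was at 18.2, 9.55 and 10.3 CPM in GFP, 6.09 and 6.15 in WT and 4.61 and 6.99 in KO. It rose by 0.84 (SE 0.314, adjusted p 0.0418 by edgeR) in colon and 1.04 (SE 0.32, adjusted p 0.0144) in ileum. The colon call was lost without colon GFP 1, colon GFP 2, colon WT 1 or colon WT 2 (adjusted p 0.094 to 0.184 by edgeR), and the ileum call without ileum GFP 1, ileum WT 1 or ileum WT 2 (0.0519 to 0.0704). Colon GFP 3, the highest colon library for the other 19 members called there, was the lowest colon GFP library for Hist2h2be.

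**Figure D4:**
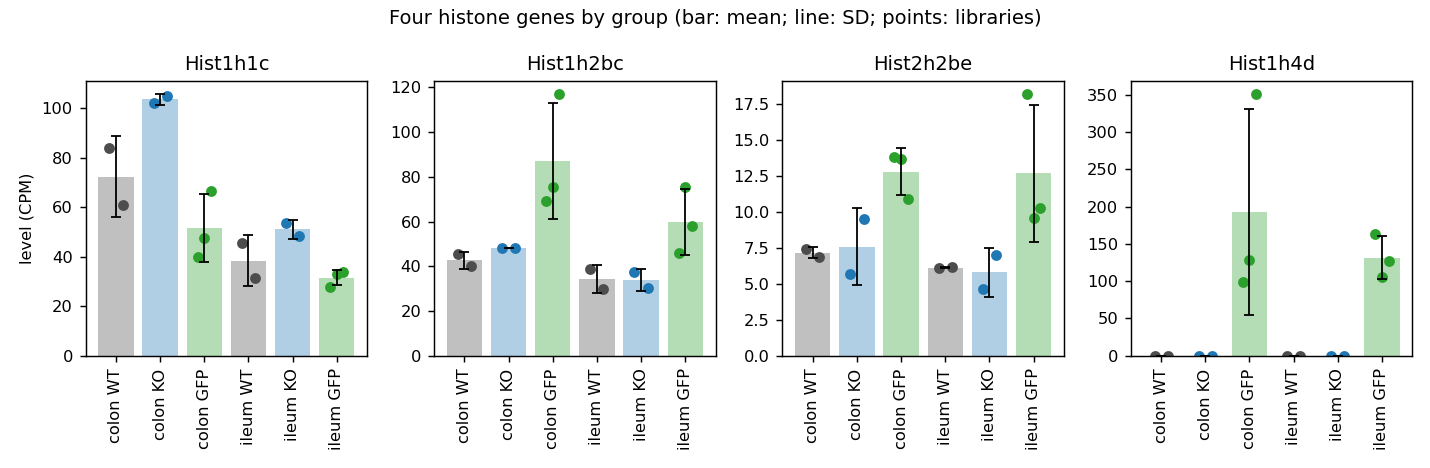
Levels in CPM of Hist1h1c, Hist1h2bc, Hist2h2be and Hist1h4d by group; bars are means, black lines are SD (n = 2 for WT and KO, 3 for GFP) and points are libraries, with a separate axis from 0 for each gene. Hist1h1c is highest in colon KO (102 and 105 CPM), Hist1h2bc and Hist2h2be are about 2 times higher in GFP than WT, and Hist1h4d is near 0 in the crypt libraries.

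The H3 genes counted were low throughout. The annotated H3 genes Hist1h3d, Hist1h3f, Hist1h3g, Hist1h3h, Hist1h3i and Hist2h3c1 were not among the genes counted. Those counted share 47.0% (Hist1h3c) to 100% (Hist2h3b) of their windows with another gene, so their levels are uncertain. The part of shared windows and of uncounted genes in the low H3 level was not tested. H3 and H4 form the tetramer at the core of the nucleosome. Hist1h3e was at 2.87, 2.24 and 9.56 CPM in colon GFP, 3.58, 1.71 and 1.86 in ileum GFP and at most 0.249 in crypts. It was called in colon, where WT held 2 counts (ratio 59.1, counting interval 16 to 494), and in ileum (log2 3.79, SE 0.891, adjusted p 0.00328 by edgeR). Hist1h3a was not called in either (adjusted p 0.0525 and 0.148 by edgeR). Hist1h3b, Hist1h3c and Hist2h3b had too few counts for a test. They reached 5.53, 4.03 and 4.18 CPM in colon GFP 3, were 0.213 to 1.35 CPM in the other 5 sorted libraries and had no count in WT.

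The H4 gene Hist1h4d showed the widest gap of all members with a count in both groups. It was at 99.3, 128 and 351 CPM in colon GFP and 163, 105 and 127 in ileum GFP. In crypts it was at 0.173 and 0.137 CPM in colon WT, 0.217 and 0.211 in colon KO, 0.0762 and 0.0831 in ileum WT, and 0.234 and 0.301 in ileum KO. The log2 difference to WT was 10.19 in colon (SE 0.805, adjusted p 3.39e-06 by edgeR, 4314 counts against 4). In ileum 2710 counts stood against 2, a ratio of 1620 (counting interval 448 to 13385). Hist1h4d shares 10.2% of its windows with another gene.

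Hist1h4c was at 7.65, 8.84 and 23.6 CPM in colon GFP, 5.45, 9.67 and 11.6 in ileum GFP and at most 0.166 in crypts, with ratios of 163 (counting interval 44.8 to 1355) and 76.5 (25.8 to 374). Hist1h4j was at 0.850, 1.74 and 1.79 CPM in colon GFP and was called there (adjusted p 0.00462 by edgeR, lost without colon WT 1), but not in ileum (adjusted p 0.0623). Hist1h4i was the H4 gene crypts expressed most: 3.29 and 2.26 CPM in colon WT, 2.38 and 1.97 in colon KO, 2.97 and 2.91 in ileum WT, and 3.28 and 3.38 in ileum KO. In GFP cells it was at 0.850, 0.872 and 2.54 CPM in colon and 2.38, 2.69 and 2.28 in ileum. It was not called in colon (-0.99, SE 0.452, adjusted p 0.0862 by edgeR) or ileum (-0.26, adjusted p 0.641), and was called lower in colon GFP once colon GFP 3 was left out (-1.67, adjusted p 0.00488).

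Against KO crypts, which share the GFP libraries with the comparison above, 19 of the 53 members were higher and 1 lower in colon GFP, where 23.9% of all genes tested were higher and 25.0% lower. In ileum 19 were higher and 1 lower, beside 27.5% and 27.9%. The gene that fell in both was Hist1h1c, at -1.02 in colon (SE 0.217, adjusted p 0.00162 by edgeR) and -0.69 in ileum (SE 0.223, adjusted p 0.017), where GFP and KO libraries did not overlap. The ileum call was lost without ileum GFP 1 (adjusted p 0.05 by edgeR) or ileum KO 1 (0.0951). Hist1h4d was 9.74 higher on the log2 scale in colon (SE 0.77) and 8.88 in ileum (SE 0.751). Hist3h2a, not called against WT, was called higher against KO in ileum (1.67, adjusted p 0.0423 by edgeR), with overlapping libraries, and not without ileum GFP 2, ileum GFP 3, ileum KO 1 or ileum KO 2 (0.0769 to 0.244). Hist2h2be was called against KO in ileum but not in colon (adjusted p 0.00901 and 0.0583 by edgeR), and the ileum call was lost without ileum KO 1 (0.115). Hist1h2bc was called against KO in both tissues (0.85 and 0.82 on the log2 scale), but not in colon without colon KO 1 or colon KO 2 (adjusted p 0.0729 and 0.0725 by edgeR) nor in ileum without ileum KO 2 (0.117). Hist1h2ai lost its call against KO in colon without colon GFP 3, colon KO 1 or colon KO 2 and in ileum without any of the 5 libraries. Hist1h2bg lost it in colon without colon KO 1 and Hist1h2bj without colon KO 2.

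No histone gene was called for the loss of Atoh1 itself, with 2 libraries per group. On simulated data the colon KO against WT fit recovered 28 of 100 genes changed 2-fold, so changes of that size can be missed. Of the 53 members, 7 had enough counts in crypts to be tested, namely Hist1h1c, Hist1h1d, Hist3h2a, Hist1h2bc, Hist1h2bg, Hist2h2be and Hist1h4i, and edgeR called 0 in colon and 0 in ileum, beside 0.153% and 1.22% of the 14415 genes tested. At an unadjusted p under 0.05 edgeR gave 1 in colon (Hist1h1c) and 0 in ileum, and DESeq2 gave the same numbers and called 0. Hist1h1c was higher in both KO libraries than in both WT libraries in each tissue, by 0.51 in colon (SE 0.203, unadjusted p 0.0398, adjusted p 0.607 by edgeR) and 0.44 in ileum (SE 0.208, unadjusted p 0.0707, adjusted p 0.422). For Hist1h2bc the difference was 0.16 (SE 0.153) in colon and 0.01 (SE 0.155) in ileum. The difference between tissues of KO against WT called 0 members and gave 0 at an unadjusted p under 0.05, by edgeR and by DESeq2, beside 0.00694% of all genes.

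Colon and ileum differed in Hist1h1c in each kind of sample. It was higher in colon by 0.92 in WT (SE 0.208, adjusted p 0.0232 by edgeR), by 0.99 in KO (SE 0.206, adjusted p 0.0135) and by 0.70 in GFP (SE 0.204, adjusted p 0.0243), and in each the colon libraries lay above the ileum ones. It was the 1 member called in each of these comparisons, where 19.9%, 25.7% and 22.7% of all genes tested changed. Each call rested on few libraries. That in WT was lost without colon WT 1 (adjusted p 0.0942 by edgeR), that in KO without any of the 4 KO libraries (0.0592 to 0.0897), and that in GFP without colon GFP 3 (0.115), ileum GFP 1 (0.0721) or ileum GFP 2 (0.0501). Without colon GFP 3, Hist1h4i was called lower in colon than in ileum GFP cells (-1.50, adjusted p 0.0191 by edgeR). The difference between tissues of GFP against WT called 0 of the members tested, with 0 at an unadjusted p under 0.05 by edgeR and by DESeq2, beside 2.19% of all genes.

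Among the sorted libraries, colon GFP 3 was highest for H1 (323 CPM, against 106 and 132), H2A (80.1, against 19.2 and 22.7), H2B (212, against 107 and 115), H3 (25.4, against 5.10 and 4.98) and H4 (386, against 110 and 141). The non-polyadenylated RNAs Rn7sk (7SK, a regulator of transcription elongation) and Rmrp (the RNA of RNase MRP) were highest there too: Rn7sk was at 300, 441 and 680 CPM in colon GFP 1, 2 and 3, and Rmrp at 3.40, 6.97 and 23.0. For Rn7sk and Rmrp the order in ileum was another. Ileum GFP 1, 2 and 3 had histone sums of 506, 393 and 396 CPM, Rn7sk at 249, 329 and 440, and Rmrp at 6.64, 1.96 and 9.85. The library with the most histone RNA there, ileum GFP 1, had the least Rn7sk. It had the highest sum of small nuclear and nucleolar RNAs, at 451 CPM against 167 and 200. Its share of mt-Rnr1 and mt-Rnr2 together was also the highest, at 35.86% of gene counts against 30.02 and 32.16%. By gene, mt-Rnr1 was highest there (156975 CPM, against 104811 and 109718) and mt-Rnr2 lowest (299654, against 331959 and 357151). The part of these RNAs, or of what sets them, in the histone levels was not tested. The proliferation gene Mki67 was at 483, 395 and 290 CPM in colon GFP 1, 2 and 3, lowest in colon GFP 3. The thymidylate synthase gene Tyms was at 56.1, 62.5 and 82.2 in the same libraries.

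Several RNAs outside the histone genes that carry no poly(A) tail, or only a short one, were far higher in the sorted libraries. Of 8 such genes listed, 7 were matched and 4 tested, and all 4 rose in both tissues, with a median log2 difference of 8.66 in colon and 8.14 in ileum, beside 0.01 and -0.06 over all genes tested. Rn7sk was at 249, 329 and 440 CPM in ileum GFP and 0.469 to 1.62 in the 8 crypt libraries. It rose by 9.48 in colon (SE 0.493, adjusted p 3.27e-08 by edgeR) and by 8.72 in ileum. Rmrp rose by 5.76 and 5.55, mt-Rnr1 by 8.38 and 8.00, and mt-Rnr2 by 8.95 and 8.27. Rmrp, at 0.0831 to 0.289 CPM in crypts, passed the filter on low counts only through the sorted libraries, so its place among the 4 is not support. Of 57 small nuclear and nucleolar RNA genes tested, 21 rose and 1 fell in colon, and 29 rose and 0 fell in ileum, beside 22.3% and 24.6% of all genes that rose. With the crypt libraries alone 25 of these genes passed the filter on low counts, so many of the 57 were tested because of their level in sorted cells, and this count is not support. Summed over all 2278 such genes, the level was 129 to 451 CPM in sorted libraries and 44 to 77.2 in crypts. In KO against WT, 3 of the first list and 25 of the small RNA genes were tested, and edgeR called 0 in either tissue. Whether the preparation of the sorted libraries or the sorted cells set the histone levels cannot be told apart, since every GFP library was prepared from sorted cells and every crypt library was not.

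Genes of DNA replication, which are polyadenylated, did not move in 1 direction. Of 29 listed, 11 rose and 4 fell in colon GFP against WT (median 0.21), and 3 rose and 14 fell in ileum (median -0.52), beside 45.9% and 52.8% of all genes that changed in either direction. In colon, Tyms rose by 1.36 (SE 0.257, adjusted p 0.000798 by edgeR) and the replication initiation gene Gins2 by 1.12 (SE 0.257), while the S-phase kinase gene Cdk2 fell by 1.43 (SE 0.224). In ileum Cdk2 fell by 1.38, the G1/S cyclin gene Ccne1 by 1.31 and the DNA methylation cofactor gene Uhrf1 by 1.27, all called. The flap endonuclease gene Fen1 had a lower level in GFP cells (at most 0.245 CPM, against 1.37 to 3.83 in crypts) and was called in both tissues. Mki67 went the other way in both. It was at 483, 395 and 290 CPM in colon GFP, against 213 and 225 in colon WT. In ileum it was at 575, 614 and 595 CPM in GFP, against 339 and 350 in WT. The sums that follow depend most on abundant genes such as Mki67. Summed over the list, the levels were 1712, 1535 and 1581 CPM in colon GFP, 1271 and 1307 in colon WT, 2113, 1800 and 1810 in ileum GFP, and 2048 and 2092 in ileum WT, so sorted and WT libraries lay within a range of 2 times of each other. In WT crypts 20 of the 29 were lower in colon than in ileum and 0 higher, and in KO crypts 24 and 0, beside 19.9% and 25.7% of all genes that changed in either direction. Hist1h1c, higher in colon, ran the other way.

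**Figure D5:**
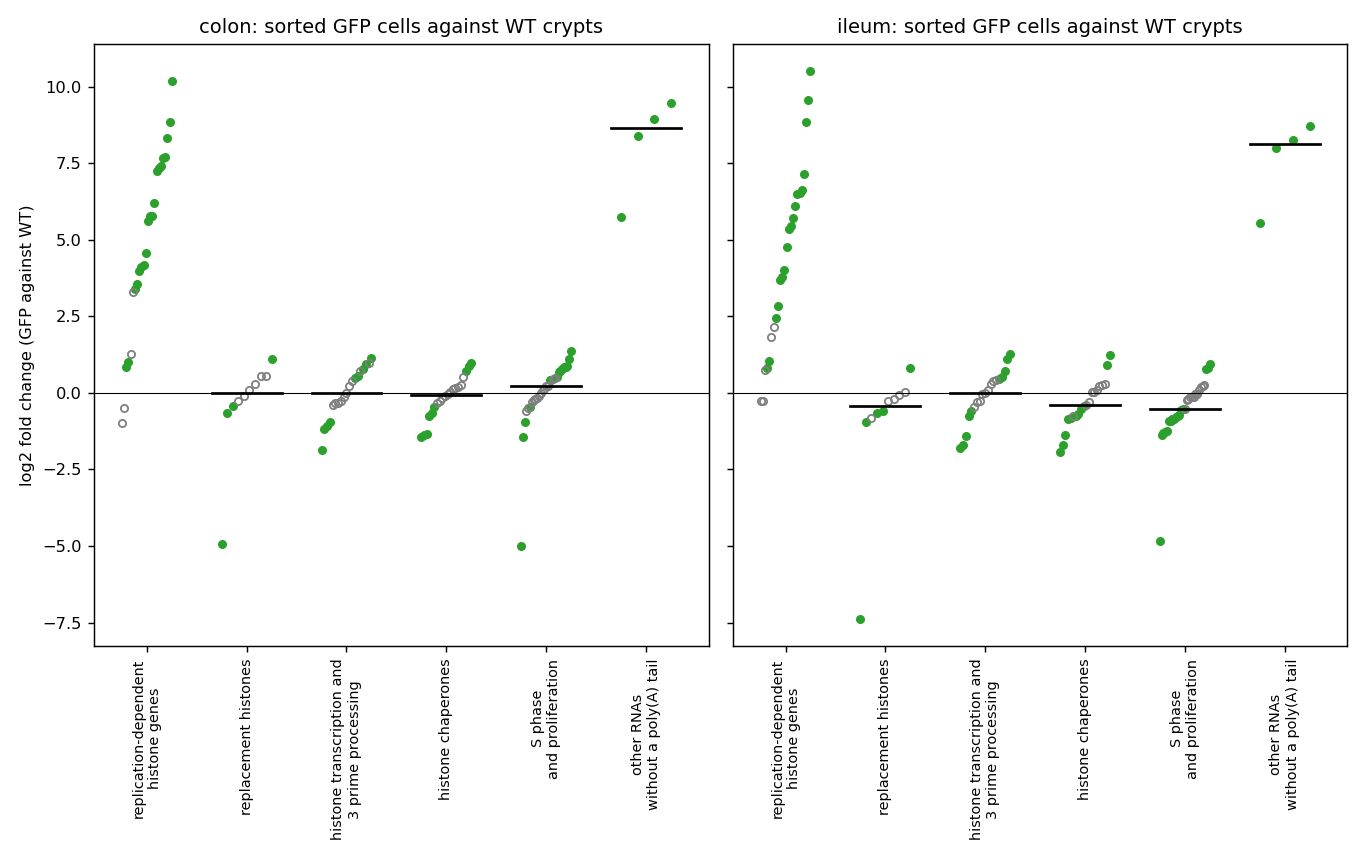
log2 fold change of sorted GFP cells against WT crypts in colon (left) and ileum (right) for tested genes of 6 groups; filled green points passed the test, open grey points did not, and black lines are medians, drawn for the lists other than the histone genes. The points of Hist1h2ab in colon and Hist1h2bb in ileum are fitted values of genes with no count in WT. Histone genes and other RNAs without a poly(A) tail reach far above 0, while replacement histones, processing factors, chaperones and S-phase genes spread around it.

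The replacement histones, most of which are made throughout the cell cycle from polyadenylated mRNAs, moved both ways. That description does not hold in full for H2afx and Cenpa, which are also on the list. Of 10 tested, 1 rose and 3 fell in colon GFP (median -0.01), and 1 rose and 4 fell in ileum (median -0.42), near the 45.9% and 52.8% of all genes that changed in these comparisons. The gene that rose was H2afz (H2A.Z), at 20, 15.8 and 24.2 CPM in colon GFP against 9 and 9.36 in WT (1.12, SE 0.308, adjusted p 0.00909 by edgeR). H3f3b (H3.3) was at 156, 152 and 141 CPM in colon GFP against 249 and 225 in WT, and fell by 0.66. The linker variant H1fx had at most 0.149 CPM in a sorted library against 0.997 to 2.82 in crypts and was called lower in both tissues.

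Factors that make and end histone mRNA moved both ways. Of 19 listed, 5 rose and 4 fell in colon GFP, and 5 rose and 5 fell in ileum (medians 0.01 and 0.01), again near the 45.9% and 52.8% of all genes that changed. Npat, the coactivator of the histone locus body, rose by 0.93 in colon (SE 0.205, adjusted p 0.00233 by edgeR) and 1.11 in ileum (SE 0.207, adjusted p 0.000549). Eri1, the exonuclease that trims the histone stem-loop end, rose by 1.14 and 0.70. Among those that fell were Upf1, the helicase needed for histone mRNA decay, by 1.88 and 1.79, and Sympk, the scaffold of the cleavage complex, by 1.17 and 1.42. Of 20 histone chaperones, 3 rose and 6 fell in colon and 2 rose and 9 fell in ileum (medians -0.07 and -0.40), also near those shares. Asf1a, which hands H3-H4 to the assembly factors, rose by 0.89 and 1.23, while Chaf1a, the large subunit of the replication-coupled assembly factor CAF-1, fell by 1.33 and 1.92 and Hira, which deposits H3.3, by 1.37 and 1.37. No gene of these lists was called in KO against WT in either tissue.

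Markers of other cell types moved with the sorted groups as well. The 6 absorptive markers, of the main mature cell type of the epithelium, summed to 616 to 1625 CPM in sorted libraries and 2229 to 7211 in crypts. Against WT, 3 of them fell in colon GFP and 5 fell and 1 rose in ileum, with medians of -1.73 and -4.67 on the log2 scale. The 15 immune markers summed to 15.1 to 71.6 CPM in sorted libraries and 55.5 to 435 in crypts. In ileum the groups overlapped, with WT 2 at 55.5 CPM and the GFP libraries at 61.1 to 71.6. Against WT, 9 fell in colon GFP, and 11 fell and 1 rose in ileum. Of the 15, 14 were detected in colon GFP, with Mzb1 at 0. The 9 stromal markers, all detected in each group, summed to 1.81 to 8.96 CPM in sorted libraries and 41.5 to 141 in crypts. Against WT, 7 fell in colon GFP and 9 in ileum. Over all genes tested, 45.9% and 52.8% changed in either direction in these comparisons. The part of the absorptive, immune and stromal cells in the histone levels was not tested.

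The promoters of histone genes hold the motifs known for this family, and they are shown because the members with the widest gap and those with none can be compared there. RefSeq (GRCm38.p6) gave 50 promoters of 49 members. Searched on both strands of the 250 bases before the start, CCAAT was in 82.0% of them, against 33.8% of all 32851 promoters, and 66.0% held 2 or more, against 10.1%. The letters TATAAA were in 50%, against 12.4%, and the octamer ATTTGCAT, known from H2B promoters, in 24.0%, against 1.6%. The 120 bases before the start follow for 4 genes, 5′ to 3′ on the gene's strand, with CCAAT or its reverse ATTGG and TATAAA in capitals. Hist1h4d lies at chr13:23581448-23581567 (plus strand), Hist1h1e at chr13:23622559-23622678 (minus strand), Hist1h2bb at chr13:23746614-23746733 (plus strand) and Hist1h1c at chr13:23738687-23738806 (plus strand).

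Hist1h4d: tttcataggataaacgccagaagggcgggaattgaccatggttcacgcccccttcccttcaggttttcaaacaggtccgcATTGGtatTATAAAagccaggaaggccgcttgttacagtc
Hist1h1e: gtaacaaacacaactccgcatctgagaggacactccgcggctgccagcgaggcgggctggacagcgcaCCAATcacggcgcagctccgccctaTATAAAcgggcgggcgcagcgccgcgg
Hist1h2bb: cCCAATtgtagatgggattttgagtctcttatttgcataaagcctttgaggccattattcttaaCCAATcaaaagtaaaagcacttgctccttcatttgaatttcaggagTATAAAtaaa
Hist1h1c: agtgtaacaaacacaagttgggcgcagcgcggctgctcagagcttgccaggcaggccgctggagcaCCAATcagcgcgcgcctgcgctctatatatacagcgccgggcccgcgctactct

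Hist1h1c, which GFP cells did not express above WT, and Hist1h1e, which they did, both hold CCAAT in this stretch. The exact letters TATAAA are in that of Hist1h1e but not in that of Hist1h1c. The stretch of Hist1h1c reads tatatata, which the search did not count, so the gene is not shown to lack a TATA box. A match is a description of letters and not a bound site.

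H2A and H2B genes often sit head to head and share the promoter between them. In 6 pairs of members the promoter windows overlapped on opposite strands, by 220 to 279 bases. The counts within a pair could be far apart: over the 6 sorted libraries Hist1h2bg had 400 counts and its partner Hist1h2ae 6, Hist1h2bk had 244 and Hist1h2ah 6, and Hist1h2bf had 196 and Hist1h2ad 6. Hist1h2bj and Hist1h2ag were nearer, at 88 and 32, and Hist1h2bp and Hist1h2an were both low, at 13 and 9. In the 8 crypt libraries Hist1h2bg had 84 counts and Hist1h2ae 28, Hist1h2bk 8 and Hist1h2ah 7, and Hist1h2bf 7 and Hist1h2ad 9. These are raw counts, which also follow gene length and the part of each gene shared with copies.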

How the data were processed

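Per the submitters' processing notes, alignment was by TopHat 1.4.1 to mm9 and counting by HTSeq. Not given in the sources used here are HTSeq's version, its strand setting and the annotation release. The values the authors deposited are raw counts, whole numbers for each Ensembl gene, in 1 table per library. Symbols (for 31004 of 36536 genes), lengths and transcripts came from GENCODE M21, and promoters from RefSeq. Both are of build GRCm38, used for names and sequences only. The special lines of HTSeq (42.36 to 68.55% of all lines' counts per library, with alignments at several sites at 29.25 to 42.98%) were left out.

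The test was edgeR's quasi-likelihood F-test (version 4.0.16, R 4.3.3, TMM, filterByExpr by group, robust fit, Benjamini-Hochberg). Comparisons with GFP used all 14 libraries (15274 genes) and the others the 8 crypt libraries (14415 genes). Alternatives were DESeq2 1.42.0, other scalings, no filter, only the groups compared, a replicate block and leaving out each library. On simulated data the colon GFP against WT fit recovered 48 of 100 genes changed 2-fold and 91 of 100 changed 4-fold. It gave 4 false calls among 14510 genes. The colon KO against WT fit recovered 28 of 100 changed 2-fold and 99 of 100 changed 4-fold. It gave 5 false calls among 14252 genes. Of the listed symbols, H1f0 and Rpph1 were not matched, and Zcchc6 was matched as Tut7.

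The members and lists were chosen with earlier results of these data known. Members with a mean of 10 CPM in a group, or called, are given by library where they carry counts and by range in crypts where they are near 0. Up to 4 called and 2 uncalled genes per type or list are described.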

Additional observations from a re-analysis of the deposited data

How the results depend on the processing

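Scaling alternatives moved the median of all genes by less than 0.1 on the log2 scale. No called member changed direction under any setting run. Of the repeat values of called members, 211 of 220 kept the call in colon GFP against WT, 194 of 208 in ileum GFP against WT, 213 of 220 in colon GFP against KO and 202 of 220 in ileum GFP against KO. Leaving out 1 library at a time gave 18 to 22 called members in colon GFP against WT, 16 to 19 in ileum GFP against WT, 18 to 21 in colon GFP against KO and 16 to 19 in ileum GFP against KO. Without colon GFP 3 the colon count against WT was 20 higher and 2 lower. Colon against ileum in WT gave 0 calls with only the groups compared and 0 to 2 with a library left out. In KO it gave 2 calls without genes above 1% of counts, 2 with no filter, 2 with the replicate block, 3 with only the groups compared, and 0 in each leave-one-out fit. In GFP it gave 3 calls with no filter and 0 to 2 with a library left out. Hist1h1c in ileum GFP against WT, not called, ranged from -0.54 (without ileum WT 2) to 0 (without ileum WT 1) with a library left out. The cause of these moves was not tested, beyond the fewer samples or genes that a setting holds.

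Same-numbered libraries share only a number, per the labels. The replicate block gave 22 called members in colon GFP against WT, of which 2 were lower (Hist1h1c, adjusted p 0.0292, and Hist1h4i, 0.0458, by edgeR), and 17 in ileum, where Hist1h2ai (0.0656) and Hist1h2bj (0.0655) were not called. It gave 0 in KO against WT. Same-numbered colon and ileum libraries deviated together in KO (correlation 0.36) and WT (0.32), but not in GFP (-0.08), and KO and WT of a tissue did not (-0.01 and 0.05).

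Per 1000000 gene counts that leave out the ribosomal RNAs of mitochondria, the summed histone level was 695 in colon GFP, 469 in ileum GFP, 173 in colon WT, 226 in colon KO, 111 in ileum WT and 131 in ileum KO. On the TMM-scaled CPM of the report, with a library left out, it was 382 to 720 in colon GFP, 116 to 146 in colon WT, 168 to 174 in colon KO, 395 to 451 in ileum GFP, 76.2 to 99.9 in ileum WT and 95.9 to 106 in ileum KO. Depth limits most members in crypts, where 46 of 53 were not tested.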
